A study of Mus musculus with 6 samples.

Results

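The receptors for IL-2, IL-4, IL-7, IL-9, IL-15 and IL-21 share a signalling chain, the common gamma chain (γc), encoded by Il2rg. The 8 genes described here are that chain and its private or semi-private partners, Il2ra, Il2rb, Il4ra, Il7r, Il9r, Il15ra and Il21r. They were taken by gene symbol, and all 8 were found among the 14379 genes of the expression table. All 8 were also among the 10173 genes that passed a filter on low values and were tested.

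γc has little affinity for cytokine on its own, and it brings the kinase JAK3 to each receptor, while the partner chain usually brings JAK1. The partner chain sets which STAT factors follow, mainly STAT5 for IL-2, IL-7, IL-9 and IL-15, STAT6 for IL-4 and STAT3 for IL-21. In T cells, IL-7 keeps naive cells alive, whereas the IL-2 receptor α chain (CD25, encoded by Il2ra) converts the IL-2 receptor to its high-affinity form after antigen stimulation.

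RNA-seq was carried out on CD4+ T cells of WT B6 mice in 2 groups of 3 libraries. The naive group was FACS isolated from lymph nodes and spleen and taken at day 0. The activated group was naive CD4+ T cells stimulated with plate-bound anti-CD3 and soluble anti-CD28 under nonpolarizing conditions, taken at day 2. Both groups carried the same WT genotype, and the mice of the study were young adults of both sexes. There was no unstimulated culture at day 2, so the stimulus and the time in culture cannot be told apart. These are bulk samples, so fewer cells of a type and less RNA per cell cannot be told apart either.

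The table held log2 values headed as FPKM, a unit already scaled for transcript length, and its name gives a batch correction (ComBat). The most frequent value, 1.99 on the log2 scale, was taken as a shared base, with 688 to 923 genes at that base in each library. Some values lay below it, down to 1.17. They counted as 0 where linear levels above the base were summed, given as shares or given a pseudocount. The table held no read counts, so the depth of each library is unknown. Naive replicates 1 and 2 shared 352 identical values away from the base, and activated replicates 2 and 3 shared 670, whereas every other pair of libraries within a group shared 0. The SD of the log2 difference was 0.16 and 0.11 for those 2 pairs and 0.28 to 0.38 for the others, so the libraries of a group were not equally independent. Values with each of these pairs averaged are given where they changed the call of a gene named below. The 8 naive T cell markers all fell and 7 of 9 activation markers rose, in the directions that the group labels give. Over all genes tested, 21.6% were called lower and 31.2% higher by the rule given below. The summed CD4 T cell markers lay at 5700 to 6320 linear units above the base in naive and 1980 to 2300 in activated cells.

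The 4 members with the largest absolute change were Il7r, Il2ra, Il15ra and Il2rg, and their promoter windows are shown for that reason, 300 bases each that run from upstream of the RefSeq start of transcription to just past it. The windows are read 5′ to 3′ on the strand of the gene (RefSeq, GRCm38.p6), and capitals mark a match to a searched motif. They are Il7r at chr15:9529827-9530126 on the minus strand, Il2ra at chr2:11642542-11642841 on the plus strand, the second of the Il15ra windows at chr2:11705462-11705761 on the plus strand, and Il2rg at chrX:101268206-101268505 on the minus strand.
Il7r: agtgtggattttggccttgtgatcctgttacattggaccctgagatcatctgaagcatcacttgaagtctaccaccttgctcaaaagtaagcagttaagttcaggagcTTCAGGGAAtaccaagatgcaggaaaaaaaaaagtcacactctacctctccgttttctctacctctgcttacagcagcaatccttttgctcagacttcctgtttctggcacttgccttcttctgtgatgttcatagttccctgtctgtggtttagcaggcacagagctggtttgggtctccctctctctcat
Il2ra: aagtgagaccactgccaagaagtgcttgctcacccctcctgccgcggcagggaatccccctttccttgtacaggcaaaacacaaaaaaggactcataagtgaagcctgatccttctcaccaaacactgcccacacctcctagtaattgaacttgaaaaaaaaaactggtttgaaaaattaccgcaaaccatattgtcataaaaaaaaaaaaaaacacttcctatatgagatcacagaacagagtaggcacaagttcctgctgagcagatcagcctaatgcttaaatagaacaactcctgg
Il15ra: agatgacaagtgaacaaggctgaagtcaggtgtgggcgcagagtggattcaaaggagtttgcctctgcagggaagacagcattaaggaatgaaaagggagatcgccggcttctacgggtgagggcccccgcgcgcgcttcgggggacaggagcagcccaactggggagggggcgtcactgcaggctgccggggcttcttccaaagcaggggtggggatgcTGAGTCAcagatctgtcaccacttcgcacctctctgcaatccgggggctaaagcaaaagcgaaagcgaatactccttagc
Il2rg: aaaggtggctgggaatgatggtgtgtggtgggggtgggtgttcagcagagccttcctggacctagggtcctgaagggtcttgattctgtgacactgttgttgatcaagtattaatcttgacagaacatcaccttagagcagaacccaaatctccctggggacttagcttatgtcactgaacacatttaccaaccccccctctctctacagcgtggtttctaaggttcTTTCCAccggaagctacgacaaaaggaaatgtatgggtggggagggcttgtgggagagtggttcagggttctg

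Each window was searched on both strands for the STAT5-type motif TTCNNNGAA, a STAT6-type motif (TTC and GAA with 4 bases of any kind between them), the AP-1 motif TGANTCA, the FOXO motif TGTTTAC, the NFAT core TGGAAA and the ETS core CCGGAAGT. The Il7r window held the STAT5-type match TTCAGGGAA from -142 to -134, counted from the start of transcription, and 8.30% of all 32851 windows held that motif. The second Il15ra window held the AP-1 match TGAGTCA from -30 to -24, against 7.81% of all windows. The Il2rg window held the NFAT core as its reverse complement, TTTCCA, from -23 to -18, and 21.4% of all windows held this short core. The Il2ra window held none of the 6 motifs and was AT-rich, with a GC content of 42.7% against a median of 52.7% over all windows. Entries were found for 7 of the 8 members, as 8 windows. Among those not printed, the first Il15ra window (TGGAAA from -117 to -112) and the Il21r window (TGTTTAC from -38 to -32, a motif in 3.65% of all windows) each held a single match, and the Il4ra and Il9r windows held none. The STAT6-type motif (6.95% of all windows) and the ETS core (3.89%) were in 0 of the 8 windows. A match is a run of letters and not a measured binding site. By the gene spans given below, the Il7r window and the second Il15ra window lie wholly inside the gene, matches included.

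A gene was called higher or lower in activated cells when limma's Benjamini-Hochberg adjusted p was below 0.05 and the change was at least 1.5-fold. By this rule 2 members rose (Il2ra and Il15ra), 3 fell (Il7r, Il2rg and Il9r) and 3 were not called (Il2rb, Il4ra and Il21r). This made 5 of 8 members called, where 52.8% of all genes tested were called, 31.2% higher and 21.6% lower, so the share of members that changed is near that of genes in general. The groups did not overlap for the same 5 members, and for 76.8% of all genes tested. The median log2 difference of the members was 0.04 and the median of its absolute value 0.93, against 0.13 and 0.62 over all genes tested. Of all genes called, 59.1% were higher, a split that became 52.9% with median-of-ratios scaling, 49.6% with quantile normalization and 48.5% with upper-quartile scaling. The median log2 difference of all genes moved with it, from 0.13 to 0.04, 0.00 and -0.04. The changes given below are relative to the deposited scale.

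**Figure D1:**
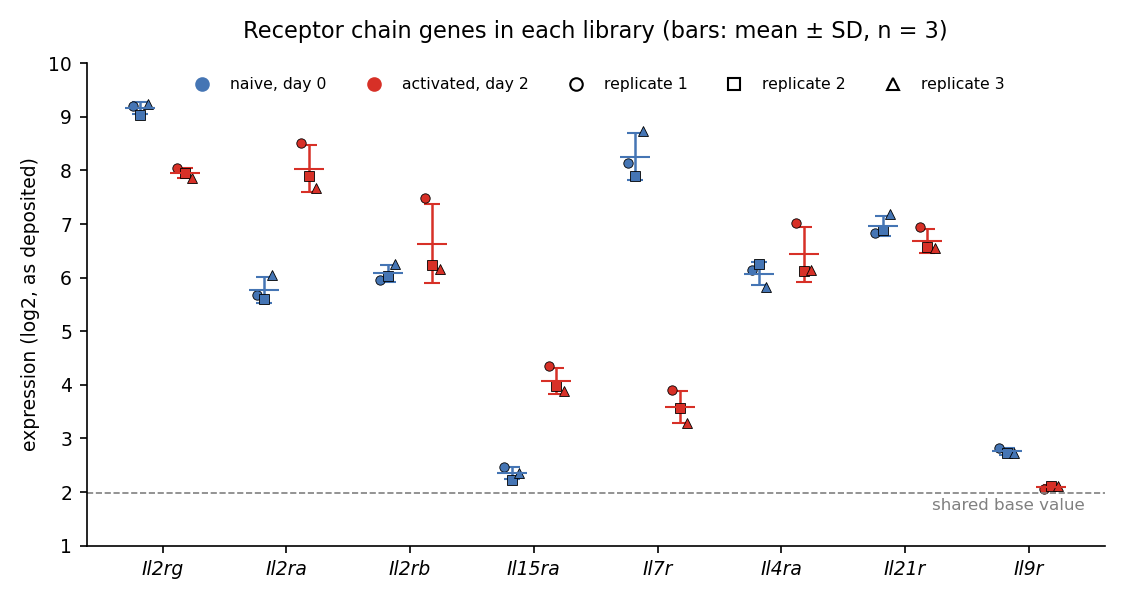
Level of each of the 8 receptor genes in each library, as the deposited log2 value (vertical axis), with naive (blue) and activated (red) libraries as points whose shape gives the replicate, and bars for mean ± SD (n = 3); the dashed line is the shared base of 1.99. The Il7r points drop from between 7.90 and 8.74 in naive cells to between 3.29 and 3.90 in activated cells, and the Il2ra points go from between 5.60 and 6.05 to between 7.68 and 8.52.

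The shared chain came first in naive cells. Il2rg (chromosome X, 101264378 to 101268255, minus strand, GRCm38/mm10) had log2 levels of 9.21, 9.03 and 9.24 in the 3 naive libraries and of 8.04, 7.96 and 7.86 in the 3 activated libraries. All 3 activated libraries were below all 3 naive libraries, and the replicates lay close together, at 9.16 ± 0.11 (SD, n = 3) and 7.95 ± 0.09 (SD, n = 3). Il2rg thus fell 2.31-fold, a log2 difference of -1.21 (SE 0.13, 95% CI -1.50 to -0.92, limma adjusted p = 2.6e-05). It still ranked 157 by level among the genes tested in naive cells and 492 in activated cells. The exon models of Il2rg and of Gm20489, a gene on the same strand, overlap by 728 bases, so reads in that stretch cannot be assigned to either with certainty, and Gm20489 was not analysed here.

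Il7r, the α chain that binds IL-7 and, with CRLF2, TSLP, had the largest change of the family. The naive log2 levels were 8.13, 7.90 and 8.74, and the activated ones 3.90, 3.57 and 3.29. In naive cells Il7r was the most abundant chain after Il2rg, and in each of the 3 activated libraries it was below every other chain except Il9r. The mean fell from 8.26 ± 0.43 to 3.58 ± 0.30 (SD, n = 3 each), a log2 difference of -4.67 (SE 0.23, 95% CI -5.20 to -4.15, limma adjusted p = 3.2e-07). This was rank 14 from the most negative of the 10173 genes tested. The fold depends on the scale, being 25.5-fold on the deposited values and 38.0-fold on linear values with the base subtracted (312 units in naive and 8.20 units in activated cells). Naive replicate 3 was the highest, 0.72 above the mean of the other naive libraries on the log2 scale, a deviation in percentile 99.5 of all genes tested. Il7r lies on chromosome 15 from 9505788 to 9530176 on the minus strand, and its printed window is the one with the STAT5-type match.

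The IL-2 receptor is built from Il2ra, Il2rb and Il2rg, of which Il2ra gives affinity and the other two carry the signal. Il2ra (chromosome 2, 11642807 to 11693193, plus strand) had log2 levels of 5.67, 5.60 and 6.05 in naive and 8.52, 7.90 and 7.68 in activated libraries. Every activated library was above every naive one. Il2ra rose 4.78-fold, from 5.77 ± 0.24 to 8.03 ± 0.43 (SD, n = 3 each), a log2 difference of 2.26 (SE 0.22, 95% CI 1.76 to 2.76, limma adjusted p = 1.6e-05), which was rank 362 from the highest of all genes tested. Its level went from rank 1740 to rank 462. Il2ra is also a constitutive marker of regulatory T cells. Of the 9 regulatory T cell markers, 1 rose (Tnfrsf18, the receptor GITR, log2 difference 2.23), 5 fell and 3 were not called. The share called was 66.7%, beside 52.8% of all genes tested. Their summed linear level above the base was 238 to 267 in naive and 386 to 578 in activated libraries, with Itgae under 1 unit in activated cells. Tnfrsf18 was the highest of these markers in each activated library, with mean log2 levels of 6.04 in naive and 8.27 in activated cells. The rise of the sum therefore does not show that the markers rose together. Foxp3, the factor that defines regulatory T cells, fell by 2.45 on the log2 scale (limma adjusted p = 4e-06), from 4.97 to 2.52. The part of regulatory T cells in the Il2ra values was not tested beyond these levels.

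Il2rb, the β chain that the IL-2 and IL-15 receptors share, differed mainly by a single library. Its log2 levels were 5.95, 6.03 and 6.26 in naive and 7.48, 6.24 and 6.17 in activated libraries, so activated replicate 1 stood above all others and activated replicates 2 and 3 lay within the naive range. The log2 difference of 0.55 (SE 0.31, 95% CI -0.15 to 1.25) was not called (limma adjusted p = 0.14, and two-sided exact permutation p = 0.3). Without activated replicate 1 the difference was 0.12. It was called higher without activated replicate 3, at 0.78 (limma adjusted p = 0.048), and with the closest libraries averaged, at 0.71 (limma adjusted p = 0.025). Over all settings its limma adjusted p ran from 0.025 to 0.53. Il2rb is prominent in CD8 T cells and NK cells, whose 10 markers summed to 153 to 189 linear units above the base in naive and 197 to 349 in activated libraries. The markers did not rise together. Of the 7 tested, Nkg7 rose, from a mean log2 level of 5.84 to 7.83, and was the highest marker in each activated library. Klrd1 (-2.96), Cd8b1 (-2.34) and Klrb1c (-1.34) fell, and 3 were not called. The latter include Xcl1, at 3.43, 6.43 and 5.92 in activated libraries. Of these 10 markers, 6 were under 1 unit in activated cells (Cd8a, Klrd1, Ncr1, Klrb1c, Klrk1 and Klre1), and the part of these cells in the Il2rb values was not tested. Il2rb lies on chromosome 15 from 78479256 to 78495271 on the minus strand.

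Il15ra, which binds IL-15 and can present it to neighbouring cells, was near the base in naive cells, at log2 levels of 2.46, 2.23 and 2.36, and reached 4.35, 3.98 and 3.89 in activated libraries. The groups did not overlap, and every activated library stood clear of the naive ones. Il15ra rose 3.30-fold, from 2.35 ± 0.12 to 4.07 ± 0.24 (SD, n = 3 each), a log2 difference of 1.72 (SE 0.13, 95% CI 1.42 to 2.03, limma adjusted p = 4e-06). The base weighs on this fold: on linear values above the base Il15ra went from 1.14 to 13.0 units, 11.4-fold, and with a pseudocount of 1 the log2 difference was 2.71. It passed the filter on low values through the activated libraries, in which it was high. Il15ra is also made by myeloid cells. Their 14 markers summed to 71.8 to 160 linear units above the base in naive and 27.6 to 43.2 in activated libraries. Of these markers, 5 were under 1 unit in naive and 8 in activated cells, and the part of myeloid cells in the Il15ra values was not tested.

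Il4ra, the chain that binds IL-4 and, with IL13RA1, IL-13, had log2 levels of 6.15, 6.25 and 5.83 in naive and 7.02, 6.13 and 6.15 in activated libraries. As for Il2rb, activated replicate 1 was the highest and the other activated libraries fell inside the naive range. The log2 difference of 0.36 (SE 0.24, 95% CI -0.18 to 0.90) was not called (limma adjusted p = 0.20, and two-sided exact permutation p = 0.5), and without activated replicate 1 it was 0.07. An antisense gene, Gm44876, shares 571 exon bases with Il4ra, and no source used here states whether counting used strand, so reads of the pair cannot be told apart. Il4ra lies on chromosome 7 from 125552120 to 125579474 on the plus strand.

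Il21r, the chain specific for IL-21, lies next to Il4ra on chromosome 7, from 125603429 to 125633570 on the plus strand. Its log2 levels were 6.83, 6.89 and 7.18 in naive and 6.95, 6.57 and 6.55 in activated libraries. Only activated replicate 1 overlapped the naive range. The log2 difference of -0.27 (SE 0.16, 95% CI -0.63 to 0.08) was not called (limma adjusted p = 0.15, and two-sided exact permutation p = 0.3). The call depended on the scaling, since quantile normalization gave -0.70 and called Il21r lower (limma adjusted p = 0.00096). B cells express Il21r and Il4ra as well, and the 10 B cell markers summed to 16.4 to 53.6 linear units above the base in naive and 11.9 to 21.1 in activated libraries, with Pax5, Ebf1 and Jchain under 1 unit in the latter.

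Il9r, the chain specific for IL-9, was the lowest member in activated cells. Its log2 levels were 2.83, 2.73 and 2.72 in naive and 2.06, 2.12 and 2.12 in activated libraries, the latter close to the base. The groups did not overlap, and Il9r fell 1.58-fold, a log2 difference of -0.66 (SE 0.07, 95% CI -0.81 to -0.51, limma adjusted p = 1.6e-05). Above the base the linear level was 2.81 units in naive and 0.318 units in activated cells, so the size of this difference is poorly fixed. With a pseudocount of 1 the log2 difference was -1.53. Il9r passed the filter through the naive libraries, in which it was high, and it was not tested with a stricter filter or called at a threshold of 2-fold. Mast cells, basophils and type 2 innate lymphoid cells, some of which carry Il9r, have 8 markers here, which summed to 10.4 to 10.9 linear units above the base in naive and 0.568 to 1.28 in activated libraries. All 8 were under 1 unit in activated cells, and 4 of them (Kit, Fcer1a, Ms4a2 and Gata2) in naive cells. The part of these cells in the Il9r values was not tested. Il9r lies on chromosome 11 from 32187541 to 32200279 on the minus strand.

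Each of the 5 called members gave a two-sided exact permutation p of 0.1, the smallest that 3 against 3 libraries allow. Leaving out each library in turn kept all 5 called, with log2 differences of 2.01 to 2.43 for Il2ra, 1.59 to 1.82 for Il15ra, -4.85 to -4.43 for Il7r, -1.27 to -1.16 for Il2rg and -0.68 to -0.63 for Il9r. The filter on low values was set on all 6 libraries and not set again for these fits. Il9r had passed it through the naive libraries alone. Its call with a naive library left out therefore rests on that earlier choice and is no separate sign of stability. Activated replicate 1 was the library most unlike its group for the receptors. Compared with the mean of the other activated libraries, it was 1.28 higher on the log2 scale for Il2rb (percentile 99.7 of all genes tested), 0.88 for Il4ra (98.8) and 0.73 for Il2ra (97.4). The median of this deviation was 0.44 over the members and 0.17 over all genes tested.

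**Figure D2:**
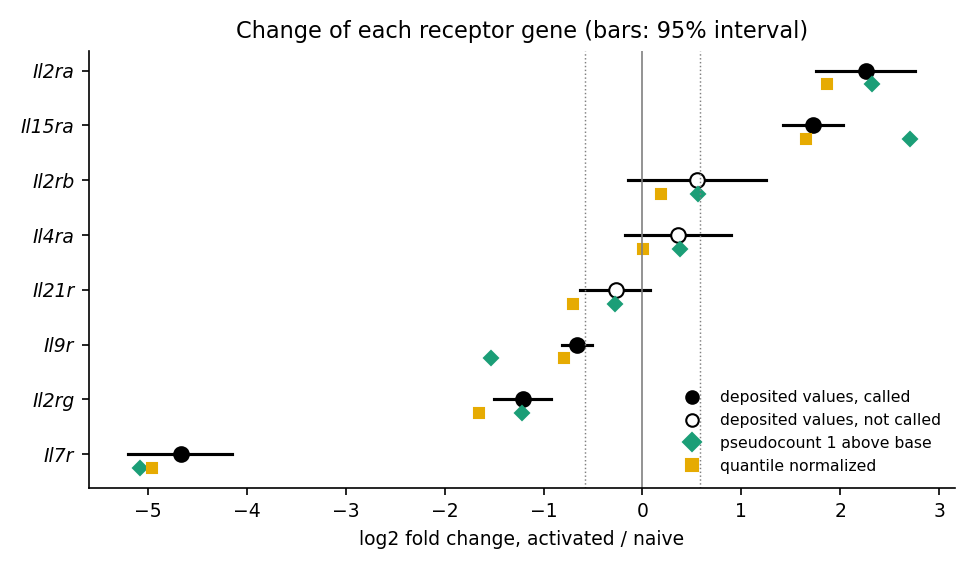
Log2 difference, activated minus naive, for each of the 8 receptor genes (horizontal axis), with circles for the limma estimate (filled where called), lines for its 95% confidence interval, diamonds and squares for the values with a pseudocount of 1 and with quantile normalization, and dotted lines at the 1.5-fold threshold. Il7r sits farthest to the left at -4.67 and Il2ra farthest to the right at 2.26, while the intervals of Il2rb, Il4ra and Il21r cross 0.

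Since the unit is scaled for length, levels can be ordered between chains. In naive cells the order on the log2 scale was Il2rg, Il7r, Il21r, Il2rb, Il4ra, Il2ra, Il9r and Il15ra. The neighbours Il2rb and Il4ra did not differ beyond their spread (mean difference 0.00, SD 0.37, in this order in 1 of 3 libraries), nor did Il4ra and Il2ra (0.30, SD 0.47, 2 of 3). In activated cells the order was Il2ra, Il2rg, Il21r, Il2rb, Il4ra, Il15ra, Il7r and Il9r. Here Il2ra and Il2rg did not differ beyond their spread (0.08, SD 0.35, 1 of 3), nor Il21r and Il2rb (0.06, SD 0.52, 2 of 3), nor Il2rb and Il4ra (0.19, SD 0.23, 3 of 3). The α chain of the IL-2 receptor, among the scarcer chains in naive cells, was level with γc after activation.

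A receptor needs its chains together, so the difference in log2 level between chains was taken within each library. For chains far above the base this leaves most scaling between libraries out. It does not do so for chains near the base, such as Il15ra in naive cells. Il2ra minus Il2rg was -3.54, -3.43 and -3.19 in naive and 0.48, -0.07 and -0.18 in activated libraries. The mean of this difference moved by 3.47, from -3.39 ± 0.18 to 0.08 ± 0.35 (SD, n = 3 each). Il7r minus Il2rg was -1.08, -1.13 and -0.50 in naive and -4.14, -4.39 and -4.57 in activated libraries, a move of -3.47, so γc fell but Il7r fell far more. Il2rb minus Il2rg moved by 1.76, Il4ra minus Il2rg by 1.57 and Il21r minus Il2rg by 0.93, although none of these partners was called. Within the other pairs, Il2ra minus Il2rb moved by 1.71, Il15ra minus Il2rb by 1.18, Il4ra minus Il21r by 0.64 and Il2ra minus Il15ra by 0.53. Those that involve Il15ra depended on the base, since with a pseudocount of 1 Il15ra minus Il2rb moved by 2.15 and Il2ra minus Il15ra by -0.39. None of the 9 pairs overlapped between groups, but neither did 76.8% of all single genes tested. Every pair except Il4ra minus Il21r holds a chain that was itself called, and the share over all gene pairs was not taken. Each pair had a two-sided exact permutation p of 0.1, the smallest possible, and 0.1 after adjustment over the 9 pairs.

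**Figure D3:**
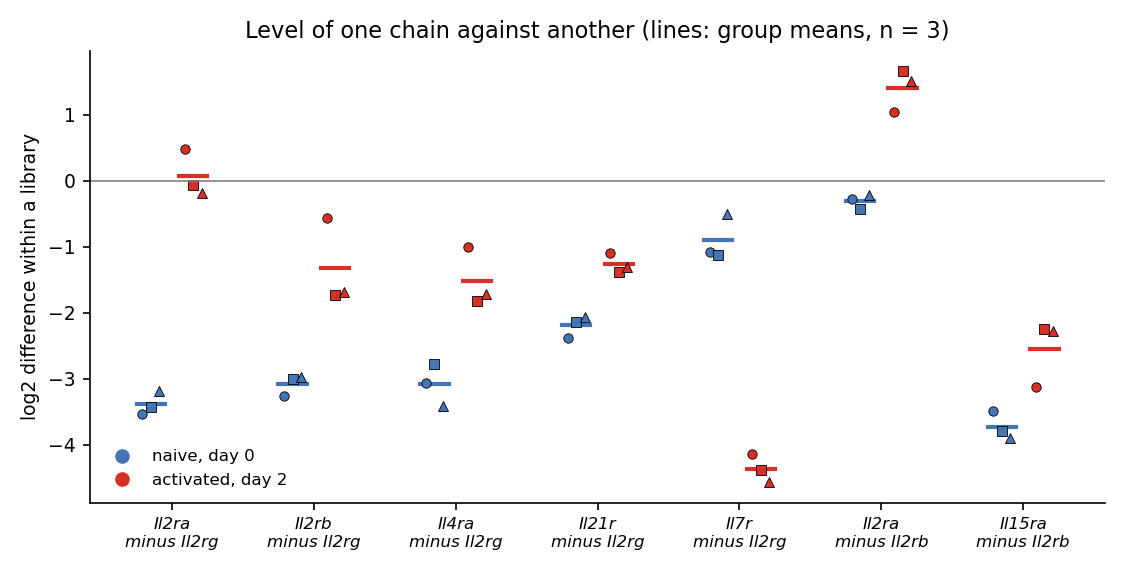
Difference in log2 level between chains that pair in a receptor, within each library (vertical axis), for naive (blue) and activated (red) libraries as points, with lines for group means (n = 3). Il2ra minus Il2rg goes from a mean of -3.39 to 0.08 and Il7r minus Il2rg from -0.90 to -4.37.

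The make-up of the partner chains can be given as a share of their summed linear level above the base, leaving out γc. Il7r made up 49.1%, 44.3% and 56.0% of this sum in the naive libraries and 1.35%, 1.63% and 1.31% in the activated ones. Il2ra made up 8.36%, 8.36% and 8.25% and then 44.7%, 48.5% and 45.4%. The chain with the largest share was Il7r in every naive library and Il2ra in every activated library. Il21r had 19.5%, 21.5% and 18.6% and then 14.8%, 18.9% and 20.3%, with overlapping groups, and Il4ra had 10.8 ± 3.4% and 14.8 ± 1.0% (SD, n = 3 each). Il2rb had 10.5 ± 1.0% and 17.2 ± 3.7%, Il15ra 0.187 ± 0.075% and 2.31 ± 0.24%, and Il9r 0.469 ± 0.11% and 0.0624 ± 0.032%. The sum itself overlapped between groups, at 563, 532 and 756 units in naive and 810, 484 and 443 units in activated libraries. Divided by the level of Il2rg it did not, at 0.955, 1.02 and 1.26 in naive and 3.13, 1.97 and 1.94 in activated libraries.

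**Figure D4:**
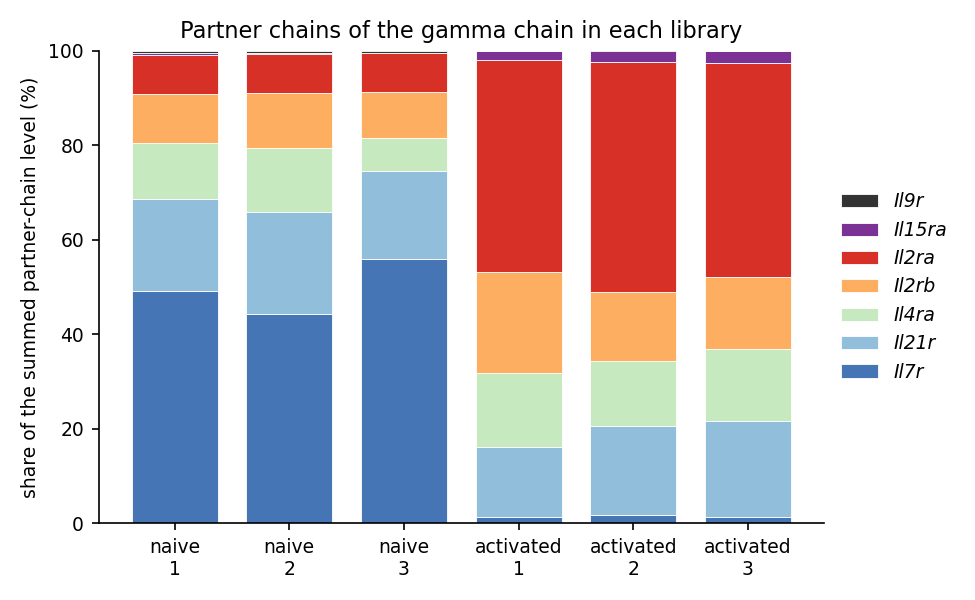
Share of each partner chain in the summed linear level above the base of the 7 chains other than Il2rg (vertical axis, percent), stacked for each of the 6 libraries. Il7r fills 44.3% to 56.0% of the naive columns and 1.31% to 1.63% of the activated ones, and Il2ra 44.7% to 48.5% of the activated columns.

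Of the 6 cytokines that use these receptors, 5 were in the table, Il9 was not analysed here, and Il7 and Il15, at log2 levels of at most 2.00 and 2.12, were below the filter. Il2, the main growth factor of activated T cells, had log2 levels of 2.88, 2.74 and 2.84 in naive libraries and a mean of 11.23 in activated libraries, the highest at 11.37. It rose by 8.41 on the log2 scale (SE 0.14, limma adjusted p = 3.6e-09), on top of the rise of Il2ra. Il4, which drives type 2 helper cells, rose from 2.91 to 4.81, a log2 difference of 1.90 (SE 0.23, limma adjusted p = 5.6e-05). Il21, a cytokine of follicular helper cells, was at 2.56, 2.46 and 2.54 and then at 2.27, 2.07 and 2.06, a log2 difference of -0.38 that was under the 1.5-fold threshold. Il21 was called lower with each of the 3 pseudocounts, at -0.98 to -2.03. It lay close to the base and passed the filter through the naive libraries alone, so these calls are no separate support. Il13, whose receptor contains the Il4ra chain, rose by 2.70 on the log2 scale, and it passed the filter through the activated libraries alone. Crlf2, the chain that joins Il7r in the TSLP receptor, was called higher at 0.80 (limma adjusted p = 0.03), a call that was lost without naive replicate 3 (0.41), without activated replicate 1 (0.86), without activated replicate 3 (0.73) and with every other scaling.

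Among 22 tested genes that carry the signal of these receptors, 3 rose, 10 fell and 9 were not called, with a median log2 difference of -0.15. The share called was 59.1%, near the 52.8% of all genes tested. The count of genes that rose was 5 without activated replicate 2, without activated replicate 3, or with the closest libraries averaged. Jak1, the kinase of the partner chains, fell from a log2 level of 7.86 to 5.50, a difference of -2.36 (SE 0.15, limma adjusted p = 1.3e-06). Jak3, the kinase of γc, had a log2 difference of 0.61 that was not called (SE 0.27, limma adjusted p = 0.069), although it was called higher without activated replicate 2 (0.74), without activated replicate 3 (0.78) and with the closest libraries averaged (0.87, limma adjusted p = 0.0049). Stat5a, a main effector of IL-2 and IL-7, rose by 1.83 on the log2 scale (limma adjusted p = 4.8e-05), whereas Stat5b was at -0.01. The pair are close paralogs, so reads they share could not be assigned to either with certainty. Stat3 (0.07) and Stat6 (-0.30) were not called, although quantile normalization called Stat6 lower at -0.69. Pik3r1, a regulatory subunit of PI3-kinase, fell by 2.51, and Ptpn11, a phosphatase that links receptors to the MAP kinase pathway, rose by 1.43. Among 12 genes that restrain receptor signalling, 3 rose, 3 fell and 6 were not called, and 5 fell with quantile normalization. Cish and Socs1, feedback inhibitors induced by STAT factors, rose by 2.96 and 2.86 on the log2 scale, and the STAT inhibitor Pias1 (-1.34) fell.

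Of 26 tested genes known to be induced through STAT5, 16 rose, 6 fell and 4 were not called, a share called of 84.6% beside 52.8% of all genes tested, and their median log2 difference was 1.04. The T cell receptor induces many of them too. Tnfrsf4 (the costimulatory receptor OX40), Bcl2l1 (the survival protein BCL-XL), Ifng and Lta rose by 3.97, 3.67, 3.52 and 3.43 on the log2 scale. Foxp3 (-2.45) and Bcl2 (-1.88), a survival gene maintained by IL-7 in naive cells, fell. All 6 genes known to be repressed through STAT5 fell, with a median log2 difference of -2.67, among them Tcf7 (the factor TCF1, -3.09) and the IL-6 receptor chains Il6ra (-2.67) and Il6st (-2.66). Over all genes tested, 21.6% were called lower. In a list of 8 genes taken as induced through STAT6, 5 rose and 3 fell, with a median of 2.16. All 8 were thus called, beside 52.8% of all genes tested. Those that rose included Irf4 (3.21), Socs1 (2.86), Gfi1 (2.84) and Il13 (2.70), and those that fell included Maf (-2.61) and Crebbp (-1.46). Whether STAT6 induces each listed gene was not tested here.

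Of 22 factors known to act on the receptor genes, 7 rose, 11 fell and 4 were not called, with a median log2 difference of -0.63. The share called was 81.8%, beside 52.8% of all genes tested. Foxo1, which drives Il7r transcription in T cells, fell from a log2 level of 7.28 to 3.86, a difference of -3.42 (SE 0.23, limma adjusted p = 1.6e-06). Klf2, a FOXO1 target that keeps T cells in circulation, fell by 6.35. Gfi1, a repressor described at Il7r in CD8 T cells, rose by 2.84, and Tbx21, which is known to raise Il2rb, rose by 3.15. Irf4, induced by T cell receptor signals, rose by 3.21. Whether any of these factors acted on the receptor genes here was not tested, and Il2rb itself was not called. Among 11 tested chains of other type I cytokine receptors, 6 rose, 3 fell and 2 were not called, with a median log2 difference of 0.74. Their share called was also 81.8%. The count that rose was 3 with upper-quartile scaling, with no filter, or without naive replicate 3 and activated replicate 1 together. Il12rb1, a chain of the IL-12 and IL-23 receptors, rose by 3.13, while Il6ra (-2.67), Il6st (-2.66) and Il27ra (-1.91) fell.

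**Figure D5:**
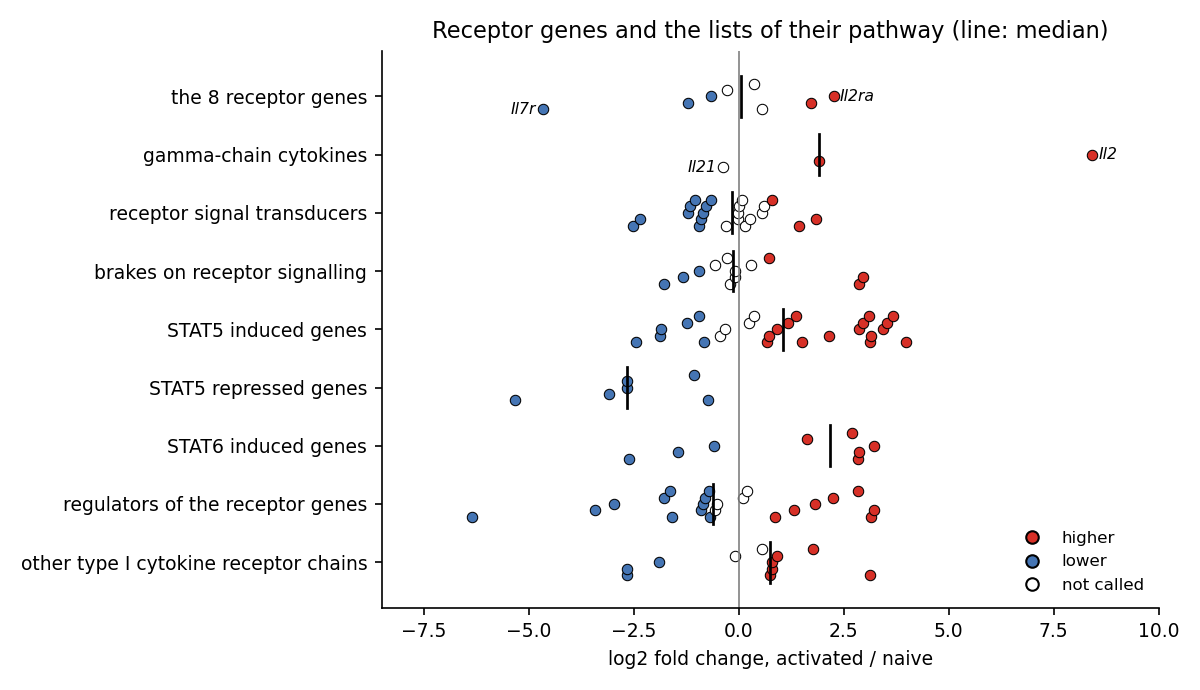
Log2 difference, activated minus naive, (horizontal axis) of every tested gene (points, red where called higher, blue where called lower and open where not called) among the 8 receptor genes and in the lists of cytokines, transducers, brakes, target genes, regulators and other receptor chains, with a line at the median of each list. The median is 1.04 for genes induced through STAT5, -2.67 for genes repressed through STAT5 and -0.15 for the transducers.

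Members lie in 2 gene pairs in the genome. The neighbours named here are the nearest tested genes on each side, 0.4 to 128.3 kb away, and untested genes can lie between. Il2ra and Il15ra (chromosome 2, 11705290 to 11734317, plus strand) are 12.1 kb apart and both rose. Of their outer neighbours, Rbm17, which encodes a splicing factor, rose by 1.14 on the log2 scale (limma adjusted p = 6.7e-05), and Ankrd16 was not called (0.14). Il4ra and Il21r are 24.0 kb apart and neither was called. Beside them, 60.5 kb from Il4ra, Nsmce1, a subunit of the SMC5/6 complex, was called higher at 0.94 (0.50 and not called with quantile normalization). Gtf3c1, a subunit of the RNA polymerase III factor TFIIIC, was called higher at 0.61 (limma adjusted p = 0.015), a call lost without activated replicate 1 (0.39), without naive replicate 3 (0.55) and with every other scaling. Around Il7r, Capsl rose by 1.10, in the direction opposite to Il7r. Spef2 was at -0.31 (limma adjusted p = 0.0063), under the fold threshold, and was called lower with each of the 3 pseudocounts (-0.70 to -1.18). Around Il2rb, Kctd17 rose by 1.47 and C1qtnf6 (0.05) was not called. Around Il9r, Nsg2 (128.3 kb away) fell by 4.16 and Snrnp25 (5.1 kb away), a component of the minor spliceosome, rose by 2.05. Around Il2rg, Gm614 (0.48) was not called on the deposited scale but was called higher with each of the 3 pseudocounts (0.81 to 1.03). Med12, a Mediator subunit, was not called at -0.59 (limma adjusted p = 0.055), and its call turned on the setting. Med12 was called lower with every other scaling (-0.71 to -0.80), with the stricter filter (-0.59), without activated replicate 1 (-0.87), without naive replicate 2 (-0.75) and without naive replicate 3 and activated replicate 1 together (-0.73).

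The pattern over the 6 libraries was set beside that of every gene tested, by the Euclidean distance of log2 values centred on the mean of each gene. For Il2ra, the nearest were Idi1 (distance 0.17) and Cyp51 (0.23), enzymes of isoprenoid and sterol synthesis, and Serpinb9 (0.29), an inhibitor of granzyme B. Their log2 differences were 2.36, 2.26 and 2.31, beside 2.26 for Il2ra. For Il7r, the nearest were Slfn1 (0.31), a gene of the Schlafen family, Tsc22d3 (0.40), which encodes the glucocorticoid-induced protein GILZ, and Ifit1 (0.46), an interferon-induced gene. Their log2 differences were -4.71, -4.47 and -4.57, beside -4.67 for Il7r. These distances describe 6 libraries and carry no test. The genes were picked by these same values, so their log2 differences lie near that of the member by construction.

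The remaining marker lists bear on purity. Of the tested markers, 1 rose, 3 fell and 3 of 7 were not called for CD8 T cells and NK cells, 1 of 8 fell for B cells, 3 of 8 fell for myeloid and dendritic cells and 2 of 3 fell for mast cells, basophils and type 2 innate lymphoid cells. In this order, the shares called were 57.1%, 12.5%, 37.5% and 66.7%, beside 52.8% of all genes tested. The 3 tested markers of mast cells, basophils and type 2 innate lymphoid cells passed the filter through the naive libraries alone. They could not have been called higher, so the direction of their calls was set by the filter. The same limit holds for Klrd1, Klrb1c, Klrk1, Jchain, Itgam and Siglech. These small counts of markers moved with the setting. CD8 T cell and NK cell markers that fell numbered 5 with each pseudocount, with quantile normalization, with the closest libraries averaged, and without naive replicate 1 or naive replicate 2, and those that rose numbered 2 with the closest libraries averaged or without activated replicate 1. B cell markers that fell numbered 2 with each pseudocount, with upper-quartile scaling or without naive replicate 1, and 2 rose without naive replicate 2. Myeloid markers that fell numbered 5 and 6 with pseudocounts of 0.1 and 0.5, and 1 rose with each pseudocount, without naive replicate 3 or without activated replicate 1. Those of mast cells, basophils and type 2 innate lymphoid cells that fell numbered 1 without naive replicate 3 and 0 with the stricter filter. In the fit to the deposited values, the markers that fell included Klrd1 (-2.96) and Cd8b1 (-2.34), Jchain (-1.88), Lyz2 (-1.86) and Ly6c2 (-1.85), and Cpa3 (-1.34), and the marker that rose was the granule gene Nkg7 (1.99). Il1rl1 was called lower at -0.63, a call lost without naive replicate 3 (-0.56). Of the 11 CD4 T cell markers tested, 9 fell and 2 were not called, with Cd3g, Themis and Cd3e at -2.55, -2.32 and -2.23. That is a share of 81.8%, while 21.6% of all genes tested were called lower.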

How the data were processed

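RNA-seq of 6 libraries was analysed, 3 of naive (day 0) and 3 of activated (day 2) CD4+ T cells. Per the labels and the methods of the study, polyA RNA reads were aligned by the authors to mm10 with HISAT2 2.0.5 and processed with StringTie 1.3.3b and featureCounts 1.5.0-p3. The authors deposited log2 values headed as FPKM, from a table whose name gives ComBat, with replicates not pooled. No source used here states the offset or the batches, and such a correction can make replicates look closer than they were. The study calls the replicates biologically independent, but the labels do not say whether they come from separate animals, and p-values measure the spread between these libraries.

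Genes with at least 1 linear unit above the base in at least 3 libraries were kept, 10173 of 14379. limma 3.58.1 (R 4.3.3) with a mean-variance trend was fitted over all of them, with Benjamini-Hochberg adjustment, after it was tested on simulated data. Calls required a fold of 1.5 or more together with an adjusted p below 0.05. Single values had exact permutation tests (scipy 1.17.1). Named genes were all 8 members, up to 4 called genes per list with the largest change and up to 2 in the opposite direction, all the cytokines, Jak1, Jak3 and the Stat genes, the nearest tested neighbours, and the 3 genes most like the highest and the lowest member; a few of them are not reported here. The members and gene lists were chosen with earlier results of these data known. Alternatives were the pseudocount, the filter, the scaling, the variance trend, a replicate block, left-out or averaged libraries and the fold threshold.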

Additional observations from a re-analysis of the deposited data

How the results depend on the processing

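Il2ra, Il15ra, Il7r and Il2rg kept their direction and their call under all 21 alternatives, with log2 differences of 1.87 to 2.43, 1.59 to 3.44, -5.23 to -4.43 and -1.65 to -1.16. Il9r lost its call at a 2-fold threshold (-0.66). Il2rb was called higher with the closest libraries averaged (0.71) and ran from 0.12 to 0.78 with single libraries left out. Il21r was called lower with quantile normalization (-0.70), and Il4ra turned to -0.06 without naive replicate 3 and activated replicate 1. At 2-fold, 3094 genes were called (1913 higher, 1181 lower) instead of 5370 (3175 and 2195). With a pseudocount of 1, the chain differences Il7r minus Il2rg, Il15ra minus Il2rb and Il2ra minus Il15ra moved by -3.86, 2.15 and -0.39. Some uncalled genes changed sign. Stat3 did so with median-of-ratios (-0.05), quantile (-0.11) and upper-quartile scaling (-0.14), without that pair of libraries (-0.22) and with single libraries left out (-0.21 to 0.22). Stat5b did so with the closest libraries averaged (0.13) and with single libraries left out (-0.23 to 0.10). C1qtnf6 did so with quantile (-0.07) and upper-quartile scaling (-0.01) and without that pair of libraries (-0.06), and Ankrd16 with upper-quartile scaling (-0.01) and without that pair (-0.06), while single libraries left out gave -0.04 to 0.12 and -0.04 to 0.28. The cause was not tested. The labels do not say whether the replicate numbers pair the libraries. Deviations of same-numbered libraries had correlations of -0.01, -0.05 and -0.14. A batch correction with unknown batches may have removed a shared replicate effect, so these values do not settle the pairing. With the number as a replicate block, 5383 genes and the same number of members, 5, were called, with Jak3 (0.61) and Med12 (-0.59) added. Without read counts, the counting error of low levels such as those of Il9r and Il15ra is unknown, and 3 libraries a group limit the precision.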
